A study of Caenorhabditis elegans with 12 samples.

Results

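The comparison described here is that of adult Caenorhabditis elegans without a proliferating germline and adults with one, both fed bacteria meant to knock down skn-1. It uses 6 of the 12 libraries of the series, chosen by their sample labels. The tested animals were glp-1(bn18ts) mutants on skn-1 RNAi food, written glp-1(ts) below, with 3 libraries, and the controls were wild type (WT, the N2 strain) on the same food, with 3 libraries. The other 6 libraries are glp-1(ts) and WT on bacteria with the empty L4440 vector, 3 of each, and serve here to show where the strain difference changed with the food. All animals were grown at 25°C and collected whole on day 1 of adulthood, with 3 biological replicates a group, and poly(A) RNA was sequenced as single reads of 50 bp. The study's methods start the feeding at the first larval stage and state that it lowers skn-1 function only in part, and the labels give the egg stage as its start.

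GLP-1 is a Notch receptor on germline stem cells. It receives a signal from the somatic distal tip cell and keeps these cells dividing, and at a restrictive temperature the ts allele leaves sterile adults with few germ cells. Loss of these stem cells extends lifespan in C. elegans through regulators in the soma, among them the FOXO factor DAF-16, the steroid receptor DAF-12 and the Nrf ortholog SKN-1, which drives genes of glutathione metabolism and detoxification. SKN-1 has a second, maternal role: it specifies the precursor of endoderm and mesoderm in the embryo. A strain difference on skn-1 RNAi food asks which of the changes that follow germline loss are seen when this factor is targeted.

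The targeted mRNA was not equal in the strains. skn-1 (WBGene00004804, WBcel235 chromosome IV, 5651039 to 5660384, minus strand) was at 5.73, 6.60 and 6.08 log2 CPM in glp-1(ts) labelled skn-1 RNAi, against 4.56, 5.03 and 4.37 log2 CPM in WT on skn-1 RNAi. All glp-1(ts) libraries were above all WT libraries, by a log2 fold change of 1.49 (SE 0.21, adjusted p = 1.79e-05, limma with Benjamini-Hochberg adjustment). On vector, skn-1 was at 6.07, 6.17 and 6.23 log2 CPM in glp-1(ts) and at 6.38, 6.50 and 6.1 log2 CPM in WT, a log2 fold change of −0.17 (adjusted p = 0.467). The mRNA was lowest in WT on skn-1 RNAi, with a log2 fold change of −1.67 against WT on vector (adjusted p = 0.00782, limma). The same comparison within glp-1(ts) gave −0.02 (adjusted p = 0.991), and the mutant libraries on skn-1 RNAi food are therefore named by their label. Reads from the double-stranded trigger and from the gene cannot be told apart in these values. In the annotation, skn-1 overlaps csn-5, a subunit gene of the COP9 signalosome, and clec-178.

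The mutated gene went with the strain labels on both foods. glp-1 (WBGene00001609, chromosome III, 9092241 to 9099698, plus strand) was at 4.88, 4.56 and 4.81 log2 CPM in glp-1(ts) labelled skn-1 RNAi, against 7.08, 7.35 and 6.70 log2 CPM in WT on skn-1 RNAi, a log2 fold change of −2.29 (SE 0.20, adjusted p = 1.84e-07). The ts allele changes the protein and need not change the mRNA, so this level is no check of the mutation itself.

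**Figure D1:**
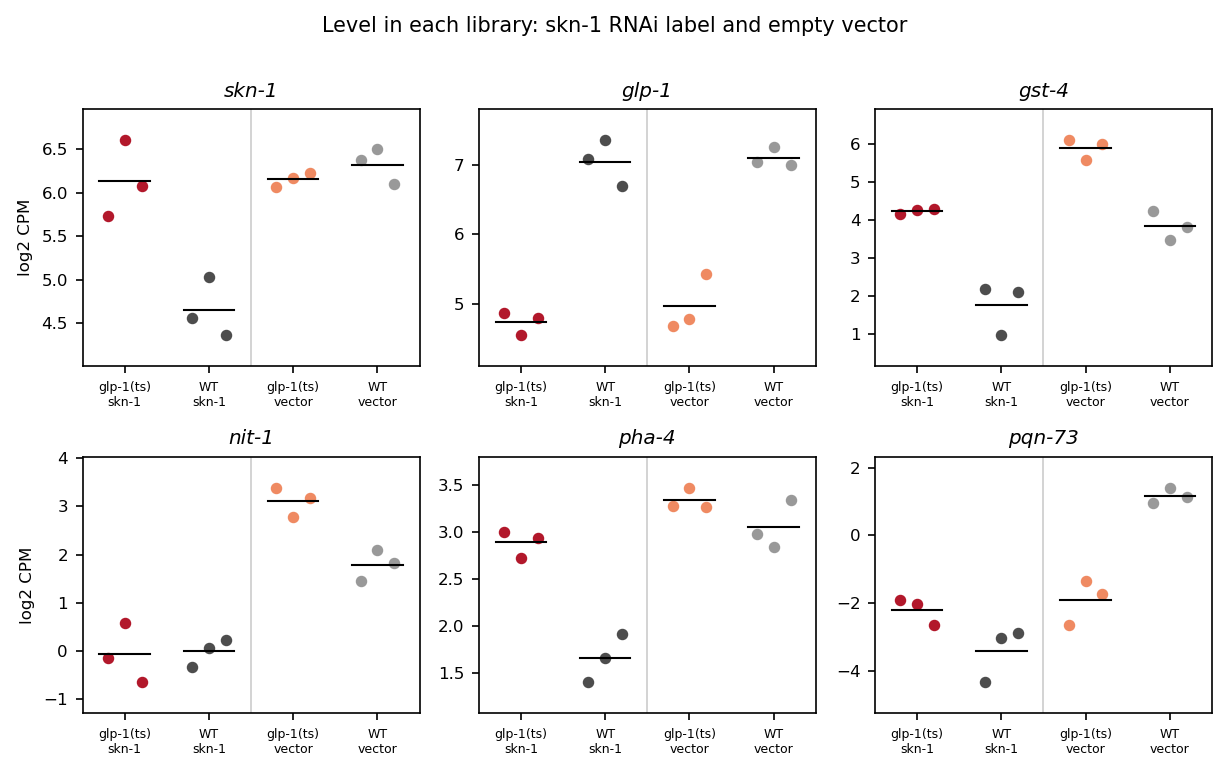
Levels of 6 genes in log2 CPM (y axis) in every library of the 4 groups (x axis), with a point per library and a line at the mean of 3. skn-1 is low only in the WT libraries on skn-1 RNAi (4.37 to 5.03), glp-1 is low in both glp-1(ts) groups, gst-4 is higher in glp-1(ts) on both foods, and nit-1 lies apart between the strains on vector and overlaps on skn-1 RNAi food; pha-4 and pqn-73 have their lowest values in WT on skn-1 RNAi.

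The values are log2 CPM, with CPM the reads of a gene scaled to a common library total, for 12595 genes after quantile normalization by the authors, so every library has nearly one distribution and the number of reads behind it is unknown. Many genes share the lowest value of a library, 246, 141 and 138 of them in glp-1(ts) labelled skn-1 RNAi and 111, 83 and 103 in WT on skn-1 RNAi, and a fold change that rests on such a value depends on that floor. Libraries within a group correlated across genes with Pearson's r of 0.967 to 0.971 in glp-1(ts) labelled skn-1 RNAi and 0.952 to 0.966 in WT on skn-1 RNAi, where genes are not independent replicates. Replicate 3 of glp-1(ts) on vector stood apart from its group toward WT in germline genes, while no mutant library labelled skn-1 RNAi did. In whole animals, fewer cells of a type and less RNA per cell cannot be told apart. Each value is relative to the other genes of its library and is set by the gene's rank there. The genes gst-4, nit-1, sod-3, lipl-3, fat-5, sbp-1, sid-2, dhs-26, daf-21 and him-4, among others named below, overlap another protein-coding gene in the annotation, and their values may hold reads of that partner. A p-value sets a difference between group means against the spread of replicates within groups, estimated in the main fit over all 12 libraries.

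Most of the transcriptome differed between the strains on skn-1 RNAi food. Of 12595 genes, 5254 (41.7%) were higher and 4793 (38.1%) were lower in glp-1(ts), 10047 or 79.8% in all (adjusted p under 0.05, limma with Benjamini-Hochberg adjustment). The 3 libraries of glp-1(ts) did not overlap with the 3 of WT for 10149 genes (80.6%). Changes over 4-fold were called for 1895 genes that rose (15.0%) and 2276 that fell (18.1%). Over all genes the log2 fold change had a median of 0.32, and the counts of members below are to be read against these shares. Since so many genes were called, being called is not particular to any group of genes, and the size of the change carries more.

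The largest decreases, taken from called genes with no overlap of the groups and a higher mean of at least 3 log2 CPM, were in genes with germline roles or with no gene class name. H11L12.1 (WBGene00019189) was at −3.29, −2.05 and −4.21 log2 CPM in glp-1(ts), against 4.02, 4.57 and 3.75 log2 CPM in WT, a log2 fold change of −7.30 in which 2 glp-1(ts) libraries were at their floor. cTel55X.1 (−6.21) came next, followed by D2096.1 (−5.97) with −0.96, −1.21 and −1.21 log2 CPM in glp-1(ts), against 3.86, 5.27 and 5.40 log2 CPM in WT. For cTel55X.1, glp-1(ts) replicate 3 was at its floor of −4.21 log2 CPM. In H11L12.1 and D2096.1 every glp-1(ts) library was far below every WT library, and the others of the first 5 were R09B3.2 (−5.71) and F20A1.9 (−5.37).

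Among genes with a class name, prg-2, a Piwi-type Argonaute gene, fell by 5.28 on the log2 scale. It was at 0.42, 2.08 and 1.41 log2 CPM in glp-1(ts), against 6.71, 6.62 and 6.43 log2 CPM in WT. The germline translation factor gene iff-1, an eIF5A homolog, was at 4.27, 3.59 and 3.33 log2 CPM in glp-1(ts), against 8.90, 8.33 and 8.88 log2 CPM in WT (log2 fold change −4.97). These are decreases of 38.9-fold and 31.3-fold in genes that were well expressed in WT. Between them stood cin-4 (−5.10) and his-68 (−5.02), and after iff-1 came cey-2 (−4.84), asfl-1 (−4.62), bath-28 (−4.59), tiar-2 (−4.58), htp-2 (−4.49), and the kinetochore gene kbp-5 (−4.48). For his-68, glp-1(ts) replicate 1 was at its floor of −3.29 log2 CPM.

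Genes of the germline stem cell and of the switch from mitosis to meiosis all fell. All 11 measured members were called lower in the mutant. Their log2 fold changes had a median of −3.05, beside 0.32 for all genes. gld-1, which encodes an RNA-binding repressor that drives entry into meiosis, was at 4.72, 4.74 and 5.01 log2 CPM in glp-1(ts), against 8.89, 9.25 and 8.15 log2 CPM in WT (log2 fold change −3.94, SE 0.37, adjusted p = 3.2e-07). The PUF repressor fbf-2 fell by 3.85, and the Notch targets sygl-1 and lst-1, which act with it, fell by 3.10 and 2.22. The smallest decreases were those of lag-1 (−1.48), the DNA-binding factor of Notch signalling that somatic cells also use, and of the poly(A) polymerase gene gld-2 (−1.29).

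P granules are RNA and protein condensates that mark the germ lineage, and all 14 measured genes of their components fell over 4-fold (median log2 fold change −3.36). pgl-1 was at 4.34, 3.92 and 4.29 log2 CPM in glp-1(ts), against 8.33, 8.44 and 8.18 log2 CPM in WT, a 17.6-fold decrease. deps-1 was at 2.22, 3.15 and 3.00 log2 CPM in glp-1(ts), against 6.94, 7.15 and 6.51 log2 CPM in WT, a 16.9-fold decrease.

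Meiotic chromosome genes behaved likewise: 34 of 34 fell, at a median of −3.49. htp-3, which encodes a protein of the chromosome axis, was at 1.83, 1.26 and 1.41 log2 CPM in glp-1(ts), against 5.21, 5.29 and 4.91 log2 CPM in WT (log2 fold change −3.63, SE 0.28). The paralog htp-2 was lower still, at −0.38, 0.57 and 0.61 log2 CPM in glp-1(ts), against 4.67, 4.92 and 4.68 log2 CPM in WT. The meiotic list held no member whose groups overlapped.

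Oocyte and embryo genes formed the other large block of decreases. All 21 genes for oocyte proteins and maternal RNA regulators fell (median −3.29). The yolk receptor gene rme-2 was at 5.68, 5.30 and 5.70 log2 CPM in glp-1(ts), against 9.39, 10.07 and 8.97 log2 CPM in WT (log2 fold change −3.92, SE 0.30, adjusted p = 6.66e-08). The zinc finger gene oma-1, needed for oocyte maturation, fell by 3.09. Of 16 genes for the eggshell and egg activation, 14 fell and 2 rose, with a median of −3.57. cbd-1, for a chitin-binding protein of the eggshell, was at 6.76, 6.31 and 6.73 log2 CPM in glp-1(ts), against 11.11, 11.62 and 10.42 log2 CPM in WT (log2 fold change −4.45), and cpg-2, for an eggshell proteoglycan, fell by 4.31. The members that rose were perm-2 (0.73) and perm-4 (0.59), genes of the eggshell's permeability barrier that were above 8.7 log2 CPM in every library of both strains.

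WT adults carry embryos, and genes first transcribed there could be seen at low levels. Of the 9 measured genes of the early embryo list, 8 fell (median −3.48). pes-1, a forkhead gene of the early embryo, was at −3.29, −4.21 and −2.65 log2 CPM in glp-1(ts), against 0.63, 0.54 and 0.47 log2 CPM in WT, with 2 of the glp-1(ts) libraries at their floor. The exception was ceh-51, a homeobox gene of the mesoderm precursor MS, with −1.92, −4.21 and −2.65 log2 CPM in glp-1(ts) and −4.35, −1.24 and −2.05 log2 CPM in WT on skn-1 RNAi (log2 fold change −0.39, adjusted p = 0.742). On vector ceh-51 fell (log2 fold change −2.60, adjusted p = 0.0362), with −0.64, 0.72 and 0.88 log2 CPM in WT. The test of the difference between the foods gave 2.22 for ceh-51 with an unadjusted p = 0.159. The gene med-1 and the endoderm genes end-1 and end-3 are not among the genes tested.

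Sperm genes did not follow the oocyte genes. Only 1 of 7 measured sperm genes fell, fog-1 (−2.03), which encodes an RNA-binding protein of sperm fate that acts in germ cells before they become sperm. The other 6 did not pass the test. Among 9 major sperm protein genes, 1 was called, msp-76, which was at −0.15, −0.19 and −0.94 log2 CPM in glp-1(ts), against −2.86, −4.35 and −0.38 log2 CPM in WT. These groups overlapped, the call (adjusted p = 0.0405) was lost in 5 of 6 fits that left out 1 library, for example without WT replicate 2 (log2 fold change 1.19, adjusted p = 0.193), and without glp-1(ts) replicate 1 (1.96, adjusted p = 0.1). On vector 5 of the 9 major sperm protein genes were called higher, with a median of 1.69, beside 0.82 on skn-1 RNAi food. The difference between the foods was called for 0 of them. Hermaphrodites make their sperm before adulthood.

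Genes for cell division fell as a class: 36 of 36 for DNA replication, cyclins, kinetochores and centrosomes, with a median of −3.15. mcm-2, a subunit gene of the replicative helicase, was at 4.53, 4.19 and 4.55 log2 CPM in glp-1(ts), against 7.92, 8.35 and 7.88 log2 CPM in WT (log2 fold change −3.63, SE 0.26). The largest change was in hcp-3 (−3.76), the gene of the centromeric histone. efl-1, an E2F gene, was at 2.90, 2.72 and 2.31 log2 CPM in glp-1(ts), against 4.62, 4.87 and 4.32 log2 CPM in WT (−1.96). Cells that divide in an adult are those of the germline and of the embryos it carries. Of 25 measured histone genes, 19 fell and 4 rose. The largest increase was in his-71 (1.96), which encodes an H3.3 variant made outside S phase, and replication-dependent histone mRNAs have no poly(A) tail as a rule, so their values in poly(A) libraries need care.

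The genes of protein synthesis and breakdown fell less but almost without exception. Of 75 cytosolic ribosomal protein genes, 72 fell with a median of −0.93, and of 65 mitochondrial ones 62 fell with a median of −1.32. Within the cytosolic set, paralogs of one subunit went opposite ways. rpl-11.1 was at 5.39, 5.35 and 4.85 log2 CPM in glp-1(ts), against 9.65, 9.28 and 9.45 log2 CPM in WT (log2 fold change −4.27), whereas its paralog rpl-11.2 rose by 1.03. rpl-25.1 was at 7.59, 7.65 and 7.60 log2 CPM in glp-1(ts), against 5.98, 5.55 and 6.65 log2 CPM in WT (log2 fold change 1.55), while rpl-25.2 had a log2 fold change of −2.23. Reads of such near-identical copies may be divided between them by the counting.

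All 14 genes of the 20S proteasome core fell (median −1.02), and so did all 18 of the 19S cap (median −1.33). The largest decreases were those of rpn-1 (−1.89) and pas-4 (−1.53). rpn-6.1, whose product is a scaffold of the 19S lid, was at 5.46, 5.53 and 5.53 log2 CPM in glp-1(ts), against 6.51, 6.59 and 6.18 log2 CPM in WT (log2 fold change −0.92, adjusted p = 1.88e-05). No proteasome gene rose, and none had overlapping groups. On vector the medians were −0.86 for the core and −1.14 for the cap, so these decreases were present on both foods.

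Genes of small RNA pathways bear on the feeding itself. Of 24 measured, 19 fell and 2 rose, at a median of −1.49, and the germline Argonautes were among the largest decreases, with wago-4 (−3.87) and hrde-1 (−3.84). The Argonaute gene rde-1, which loads siRNAs from ingested double-stranded RNA, was at 4.60, 4.59 and 4.59 log2 CPM in glp-1(ts), against 5.29, 5.19 and 5.16 log2 CPM in WT (log2 fold change −0.62, adjusted p = 0.000213). sid-2, whose product takes up double-stranded RNA from the gut lumen, was at 5.13, 4.80 and 4.78 log2 CPM in glp-1(ts), against 2.66, 2.27 and 2.53 log2 CPM in WT (log2 fold change 2.41). sid-1, for the channel that passes such RNA between cells, was at 4.29, 4.33 and 4.37 log2 CPM in glp-1(ts), against 4.72, 5.14 and 4.45 log2 CPM in WT (−0.44, adjusted p = 0.0388), and each fit without one library but that without WT replicate 3 lost this call (without WT replicate 2, −0.26, adjusted p = 0.195). Whether these levels had a part in the skn-1 level of glp-1(ts) was not tested.

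Somatic genes went the other way, and nearly every marker of a differentiated somatic tissue was higher in glp-1(ts). Of 17 body wall muscle genes 16 rose (median 1.73), as did 6 of 6 for pharyngeal muscle (2.60), 22 of 24 for neurons (2.05) and 12 of 12 for the intestine (1.99). No member of these lists fell. The intestinal GATA factor gene elt-2 was at 4.11, 4.25 and 3.96 log2 CPM in glp-1(ts), against 2.24, 1.81 and 2.29 log2 CPM in WT, a 3.98-fold increase. myo-3, a myosin heavy chain gene of body wall muscle, was at 7.21, 7.25 and 7.20 log2 CPM in glp-1(ts), against 5.11, 5.44 and 5.94 log2 CPM in WT, a 3.31-fold increase.

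The synaptic vesicle gene rab-3 was at 2.68, 3.13 and 3.35 log2 CPM in glp-1(ts), against 1.35, 1.25 and 1.25 log2 CPM in WT (log2 fold change 1.77), and ges-1, a gut esterase gene, rose by 2.66. The largest members of the other lists were unc-22 (2.84), myo-2 (2.98) and mec-12 (2.75). The list medians of these tissues, 1.73 to 2.60, stand beside the single somatic genes described below. Of 6 somatic gonad genes, 4 rose and 1 fell. ceh-18, a POU homeobox gene of the gonadal sheath, rose by 2.56, and lag-2, the Notch ligand gene of the distal tip cell, fell by 2.49 with 1 glp-1(ts) library at its floor. The level of lag-2 was low in WT too, with a mean of 0.17 log2 CPM. On vector lag-2 was not called (−1.48, adjusted p = 0.0831 by limma).

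The 3 genes used as references in C. elegans stayed close to level. cdc-42 was at 6.15, 6.33 and 6.16 log2 CPM in glp-1(ts), and at 6.42, 6.51 and 6.03 log2 CPM in WT, with a log2 fold change of −0.10 (adjusted p = 0.487). Y45F10D.4 had a log2 fold change of 0.37 (adjusted p = 0.141), and 0.60 (adjusted p = 0.0179) without WT replicate 3. pmp-3 had −0.34 with adjusted p = 0.0496, a call that every fit without one library but that without WT replicate 3 lost (without glp-1(ts) replicate 1, −0.27, adjusted p = 0.155, and without WT replicate 2, −0.21, adjusted p = 0.208).

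**Figure D2:**
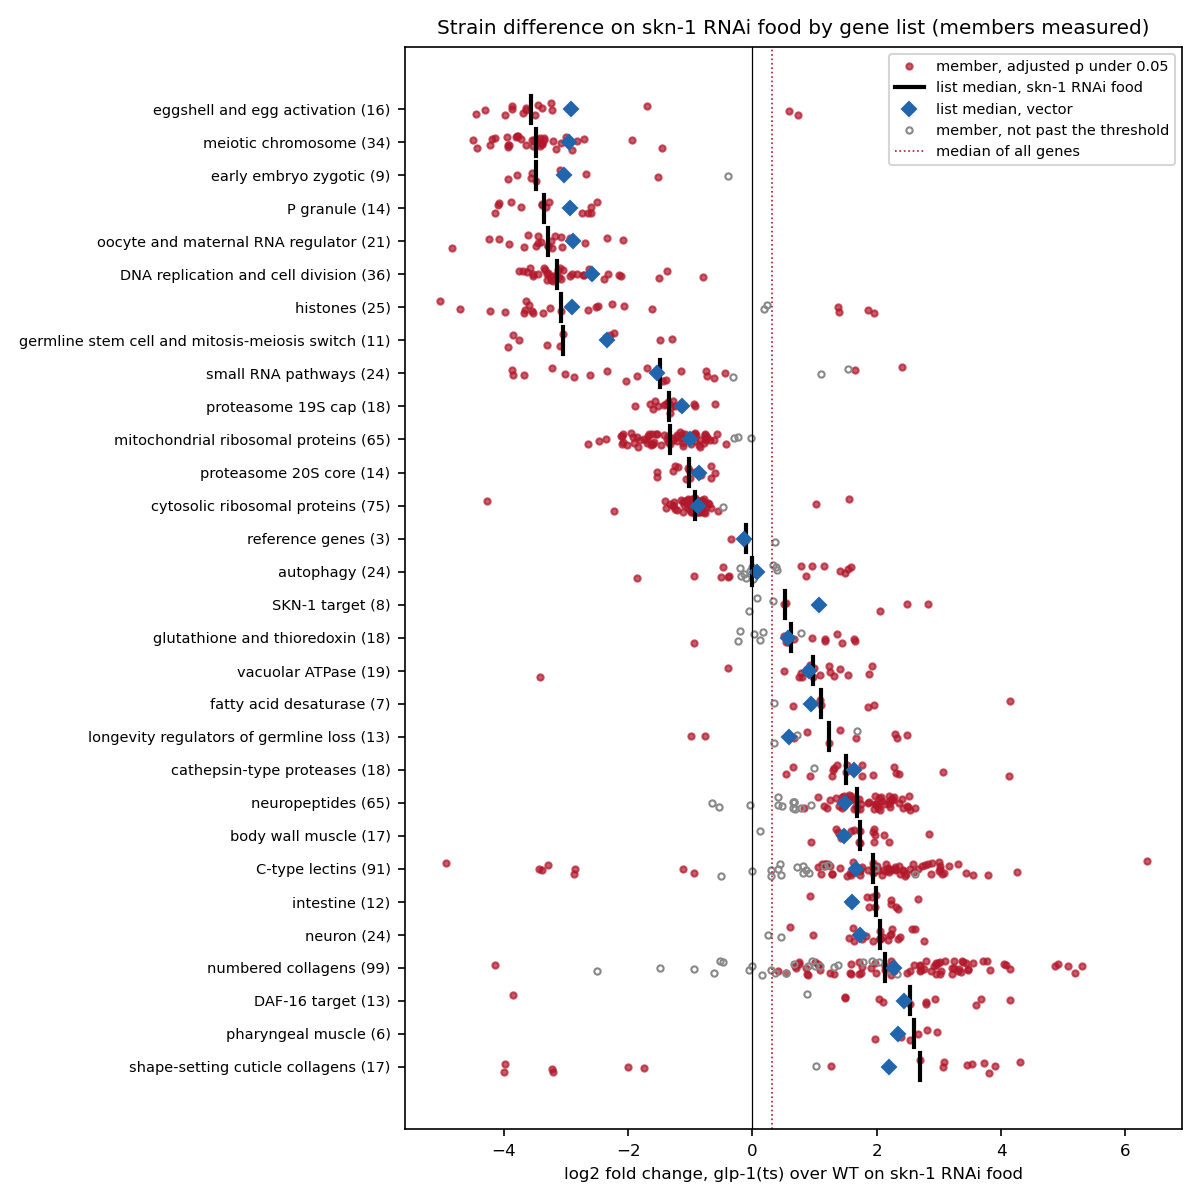
Log2 fold change of glp-1(ts) over WT on skn-1 RNAi food (x axis) for the measured members of 30 gene lists (y axis, with the number measured), filled where the adjusted p is under 0.05. Black lines are list medians, blue diamonds the medians of the same members on vector, and the dotted line the median of all genes (0.32). Germline, oocyte and cell division lists lie near −3, translation and proteasome lists near −1, and somatic tissue lists near 2.

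The direction of the change went with the chromosome. Of 1816 tested genes on the X chromosome, 67.0% were higher and 12.9% lower in glp-1(ts), whereas of 10655 autosomal genes 37.4% were higher and 42.4% lower. The median log2 fold change was 1.35 on X and 0.02 on the autosomes. The X chromosome is known to be silenced in most of the C. elegans germline, and germline genes are rare on it. Among autosomes, chromosome I had the lowest share of genes higher (27.7%, with 52.1% lower) and V the highest (50.2%, with 28.9% lower). On vector the shares for X were 62.3% higher and 12.7% lower. The 14 mitochondrial genes held 3 that were higher on skn-1 RNAi food, with a median of 0.30, beside 0.82 on vector.

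**Figure D3:**
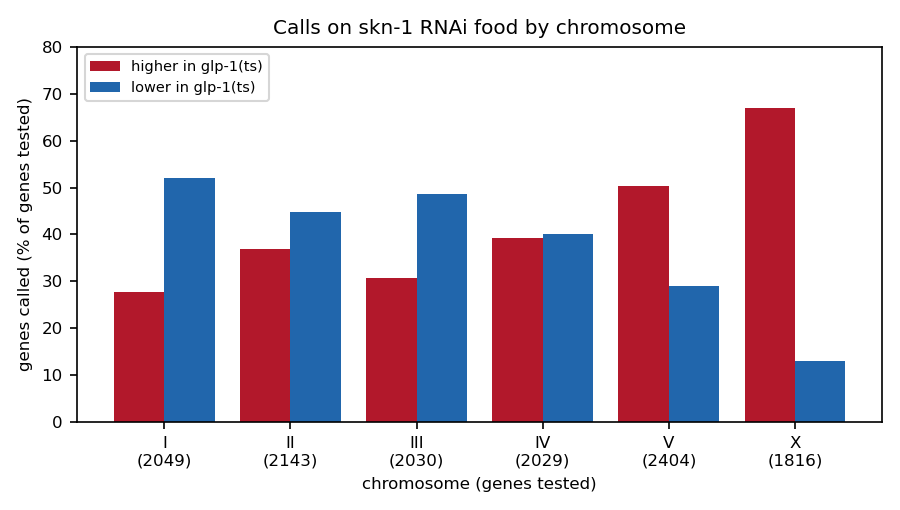
Share of tested genes (y axis, %) called higher (red) or lower (blue) in glp-1(ts), relative to WT, on skn-1 RNAi food, by chromosome (x axis, with the number of genes tested). On X, 67.0% were higher and 12.9% lower, the widest gap of the 6 chromosomes.

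The largest increases lay in cuticle, gut and unnamed genes. rol-1, a cuticle gene whose mutants roll, was at 4.07, 4.09 and 2.31 log2 CPM in glp-1(ts), against −2.86, −4.35 and −0.38 log2 CPM in WT, a log2 fold change of 6.02 in which 1 WT library was at its floor. F17B5.1 rose by 5.92, again with 1 WT library at its floor. F23C8.7 was at 5.02, 4.72 and 5.14 log2 CPM in glp-1(ts), against 0.20, −0.42 and −0.88 log2 CPM in WT (log2 fold change 5.33), a steadier difference. T22B7.7 was at 8.91, 8.79 and 9.16 log2 CPM in glp-1(ts), against 3.23, 4.17 and 3.50 log2 CPM in WT, which makes it the most abundant of the first 5. dhs-26, of the short-chain dehydrogenase family, was at 6.23, 5.59 and 6.37 log2 CPM in glp-1(ts), against −0.15, 1.40 and 0.57 log2 CPM in WT (log2 fold change 5.46).

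The genes with class names that followed were collagens and genes of the gut and of fat, namely col-73 (5.31), col-138 (4.15), fat-5 (4.15), lys-7 (4.14), asp-17 (4.14), dpy-4 (3.91), bli-6 (3.89) and col-133 (3.83). Collagens build the cuticle, which is laid down anew at each molt. Of 99 numbered collagen genes, 74 rose and 1 fell, with a median of 2.13 beside 2.27 on vector. Without glp-1(ts) vector replicate 3 the vector median was 2.78. The one that fell, col-121, was at −1.34, −0.82 and −0.94 log2 CPM in glp-1(ts), against 2.66, 2.98 and 3.69 log2 CPM in WT.

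The collagens known from shape mutants were divided. Of 17, 10 rose, 6 fell and 1 was not called, with a median of 2.70 that became −1.87 among members with a mean of at least 4 CPM. rol-6 was at 1.10, 1.44 and 0.96 log2 CPM in glp-1(ts), against −2.86, −2.21 and −4.35 log2 CPM in WT (log2 fold change 4.31, with 1 WT library at its floor), and dpy-4, rol-8 and sqt-1 rose with it. The members that fell were dpy-10 (−4.0), dpy-17 (−3.98), dpy-7 (−3.22), dpy-3 (−3.21), sqt-3 (−2.01) and dpy-2 (−1.74). dpy-10 was at −0.15, −0.07 and 1.20 log2 CPM in glp-1(ts), against 4.04, 3.92 and 5.01 log2 CPM in WT. Of these, dpy-2, dpy-3, dpy-7 and dpy-10 encode collagens of the annular furrows of the cuticle. Embryos in the WT adults make a first cuticle of their own, and the part of their RNA in these values was not tested.

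Regulators of the longevity that follows germline loss were mostly higher in glp-1(ts). Of 13 measured, 8 rose and 2 fell (median 1.23). The steroid receptor gene daf-12 was at 5.17, 5.43 and 5.48 log2 CPM in glp-1(ts), against 2.96, 2.98 and 2.68 log2 CPM in WT (log2 fold change 2.49, SE 0.16, adjusted p = 1.58e-08). nhr-80, a nuclear receptor gene that acts on fatty acid desaturation, was at 4.70, 4.86 and 4.77 log2 CPM in glp-1(ts), against 2.48, 2.42 and 2.47 log2 CPM in WT (2.32). Both groups were tight, with no library of one strain near the other strain.

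sbp-1, the SREBP gene of lipid synthesis, was at 6.27, 6.19 and 5.93 log2 CPM in glp-1(ts), against 3.73, 3.94 and 3.85 log2 CPM in WT (2.30), and the TFEB ortholog gene hlh-30 rose by 1.67. These increases lay close to the medians of the somatic tissue lists. daf-16 rose less, with 6.61, 6.94 and 6.69 log2 CPM in glp-1(ts), against 6.0, 6.33 and 5.93 log2 CPM in WT (0.66, adjusted p = 0.00192), and nhr-49 rose by 0.88. The genes that fell were tcer-1 (−0.77), whose product is a transcription elongation factor that works with DAF-16 in this pathway, and hsf-1 (−0.99). kri-1 had a log2 fold change of 0.71 (adjusted p = 0.0656), and passed the test without glp-1(ts) replicate 2 (0.98, adjusted p = 0.0201) and without WT replicate 3 (0.95, adjusted p = 0.0293).

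Of 13 measured DAF-16 targets, 11 were higher and 1 was lower, at a median of 2.54. sod-3, the gene of a mitochondrial manganese superoxide dismutase, was at 5.03, 4.49 and 4.92 log2 CPM in glp-1(ts), against 0.90, 0.63 and 2.14 log2 CPM in WT (log2 fold change 3.59, SE 0.34, adjusted p = 3.38e-07). mtl-1, a metallothionein gene, was at 6.69, 6.38 and 7.09 log2 CPM in glp-1(ts), against 2.35, 2.40 and 4.40 log2 CPM in WT (3.67, SE 0.49). WT replicate 3 was the highest of its group in both genes, and still lay below each glp-1(ts) library. The lysozyme gene lys-7 was at 9.22, 9.29 and 8.99 log2 CPM in glp-1(ts), against 4.88, 5.62 and 4.59 log2 CPM in WT, a 17.6-fold increase. The member that fell was sip-1 (−3.85), a small heat shock protein gene known from oocytes and embryos. lipl-4, a lysosomal lipase gene known to rise in glp-1 mutants, had 0.24, 0.20 and 0.12 log2 CPM in glp-1(ts), and −0.94, 0.06 and −1.21 log2 CPM in WT, and was not called (0.88, adjusted p = 0.363) although the groups did not overlap. On vector lipl-4 was called higher (2.06, adjusted p = 0.0458), but there the groups overlapped. It was at 0.77, 0.39 and 0.08 log2 CPM in glp-1(ts), and at −4.35, 0.45 and −1.05 log2 CPM in WT. WT replicate 1 on vector was at its floor. The difference between the foods had an unadjusted p = 0.361 by limma.

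**Figure D4:**
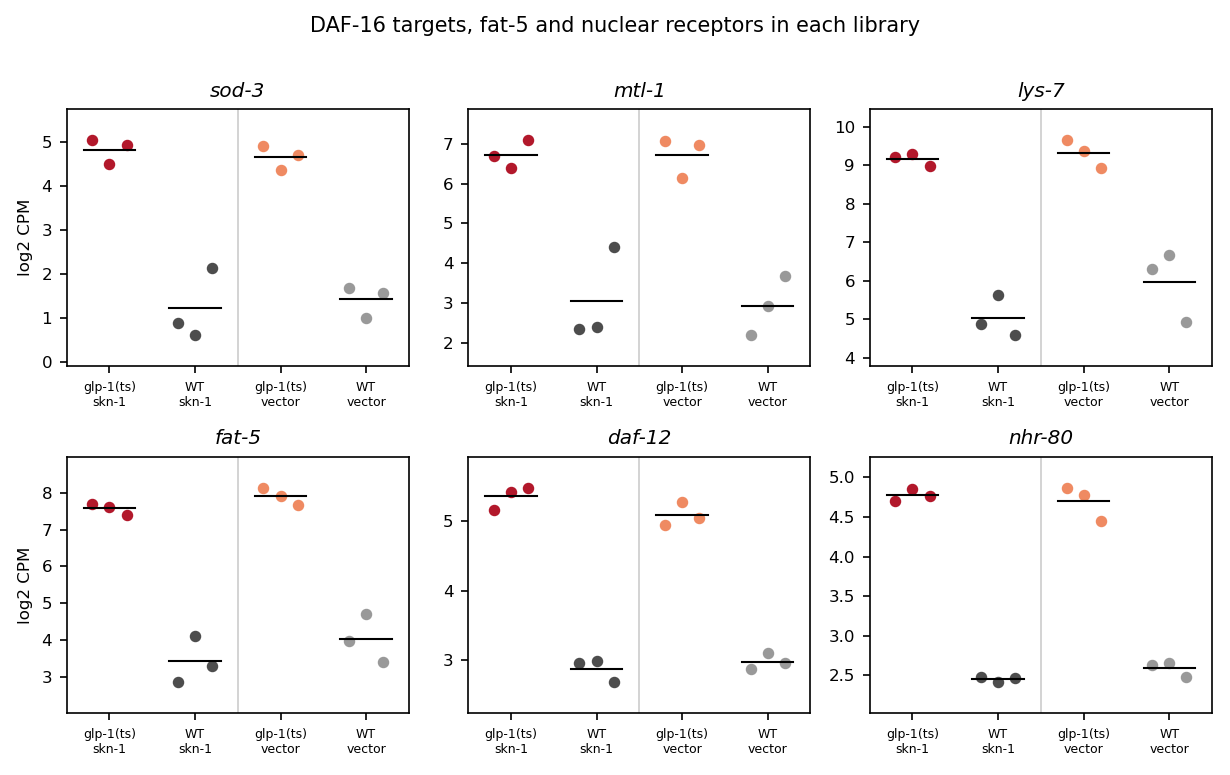
Levels of 6 genes in log2 CPM (y axis) in every library of the 4 groups (x axis), with a point per library and a line at the mean of 3. In each gene the glp-1(ts) libraries lie above the WT libraries of the same food, as for sod-3, with 4.49 to 5.03 against 0.63 to 2.14 on skn-1 RNAi food.

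Targets of SKN-1 gave a mixed picture. Of 8 measured genes, 5 were higher in glp-1(ts) on skn-1 RNAi food, with a median of 0.53, and all 8 were higher on vector, with a median of 1.07. Taken gene by gene, the difference between the foods had a median of only −0.10. It was above 0 for 3 genes and below 0 for 5, and was called for 0 of them. gst-4, a glutathione S-transferase gene widely used as a SKN-1 reporter, was at 4.15, 4.25 and 4.29 log2 CPM in glp-1(ts), against 2.19, 0.97 and 2.09 log2 CPM in WT (log2 fold change 2.48, SE 0.29, adjusted p = 2.39e-06). Its strain difference on vector was 2.06, around levels that were higher in both strains, 5.58 to 6.08 log2 CPM in glp-1(ts) and 3.45 to 4.22 log2 CPM in WT. gst-10 rose by 2.83, gst-38 by 2.05, and wdr-23, whose product directs SKN-1 to degradation, by 0.55.

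gcs-1, for the rate-limiting enzyme of glutathione synthesis, was at 5.29, 5.46 and 5.52 log2 CPM in glp-1(ts), against 5.14, 5.17 and 4.44 log2 CPM in WT (0.51, adjusted p = 0.0146). This call was lost without glp-1(ts) replicate 3 (0.46, adjusted p = 0.0515) and without WT replicate 3 (0.27, adjusted p = 0.0531). WT replicate 3 was the lowest library. The 3 targets that were not called were nit-1 (−0.06), gst-7 (0.07) and glrx-10 (0.33, and 0.57 with adjusted p = 0.0275 without WT replicate 3). nit-1, a nitrilase gene, was at −0.15, 0.57 and −0.66 log2 CPM in glp-1(ts), and at −0.33, 0.06 and 0.23 log2 CPM in WT, so the strains overlapped. On vector nit-1 was at 3.39, 2.77 and 3.17 log2 CPM in glp-1(ts), against 1.45, 2.09 and 1.83 log2 CPM in WT (1.32, adjusted p = 0.00288). The difference between these strain differences was −1.38 (unadjusted p = 0.0126, adjusted p = 0.832), and does not pass the correction. Within glp-1(ts), both genes were lower with the skn-1 RNAi label than on vector, gst-4 by a log2 fold change of −1.65 (adjusted p = 0.0324) and nit-1 by −3.19 (adjusted p = 0.00341, limma with Benjamini-Hochberg adjustment), while skn-1 mRNA itself had −0.02 (adjusted p = 0.991).

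Of 32 glutathione S-transferase genes 21 rose and 2 fell, with gst-24 (2.97) first, and of 18 genes for glutathione and thioredoxin enzymes 11 rose and 1 fell, gpx-5 (1.66) and prdx-6 (−0.93) at the ends. Among 7 superoxide dismutase and catalase genes, 5 rose and 2 fell. ctl-1, a cytosolic catalase gene, was at 1.73, 1.54 and 0.70 log2 CPM in glp-1(ts), against −0.15, −1.69 and −1.21 log2 CPM in WT (2.34), and on vector its log2 fold change was 0.65 (adjusted p = 0.223), with a difference of 1.69 (unadjusted p = 0.0271). Of 9 measured genes, skn-1 and its regulators, 8 rose and none fell. Among those that rose were skn-1 itself (1.49) and akt-2 (2.22). On vector 7 rose, and skn-1 was not called (−0.17).

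Among fat metabolism genes the share that rose differed by family. Of 7 desaturase genes 6 rose. fat-5, a palmitate desaturase gene, was at 7.70, 7.62 and 7.41 log2 CPM in glp-1(ts), against 2.86, 4.12 and 3.29 log2 CPM in WT, a 17.8-fold increase. fat-6, a stearate desaturase gene, was at 9.06, 9.17 and 9.26 log2 CPM in glp-1(ts), against 7.21, 6.91 and 7.51 log2 CPM in WT, a 3.87-fold increase. The near copy fat-7 could not be placed. It was at −1.34, 0.27 and −0.32 log2 CPM in glp-1(ts), and at −4.35, 3.14 and −1.21 log2 CPM in WT, and its sign turned when single libraries were left out (0.34 with all libraries, −1.43 without WT replicate 1).

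Of 7 lysosomal lipase genes 5 rose, led by lipl-3 (3.57), which was at 2.62, 1.16 and 0.25 log2 CPM in glp-1(ts), against −2.86, −2.21 and −1.61 log2 CPM in WT. On vector glp-1(ts) lay between 2.41 and 3.12 log2 CPM and WT between −0.47 and 0.80 log2 CPM. Of 7 elongase genes 6 rose, elo-5 (2.07) most. Of 9 fatty acid binding protein genes 7 rose, and 2 fell, of which lbp-9 (−1.92) fell more.

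lbp-8, a lysosomal lipid chaperone gene, was at −0.96, −0.96 and 0.61 log2 CPM in glp-1(ts), against −4.35, −1.24 and −1.21 log2 CPM in WT (1.83, adjusted p = 0.0467). Its lowest WT library was at the floor, and without that library, replicate 1, the log2 fold change was 0.79 with adjusted p = 0.253. Leaving out any glp-1(ts) library also lost the call (1.31 without replicate 3, adjusted p = 0.184), so did the fit on the 6 libraries of this food alone (adjusted p = 0.1).

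Of 18 acyl-CoA synthetase genes 12 rose, acs-1 (2.51) most, and 2 fell, acs-4 (−1.84) most. Of the 6 carnitine palmitoyltransferase genes, whose products bring fatty acids into mitochondria, 3 rose and cpt-1 (−0.66) fell. cpt-3 was at 3.76, 3.86 and 1.05 log2 CPM in glp-1(ts), and at 0.98, 1.49 and 1.20 log2 CPM in WT. Replicate 3 of glp-1(ts) lay within the WT range, and the call (1.67, adjusted p = 0.0206) was lost without glp-1(ts) replicate 1 (1.23, adjusted p = 0.0996), without glp-1(ts) replicate 2 (1.18, adjusted p = 0.104) or without WT replicate 1 (1.55, adjusted p = 0.0592). Of 10 acyl-CoA dehydrogenase genes, 4 rose (40.0%, beside 41.7% of all genes) and 2 fell, acdh-2 (−1.91) most. dhs-3, a lipid droplet gene of the intestine, rose by 2.08.

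The yolk protein genes are among the most abundant, where quantile normalization leaves a gene only the value of its rank. Neither vit-2 nor vit-6 varied between libraries, and vit-5 was at one value in every glp-1(ts) library, so a change in these genes could be hidden. vit-3 had a log2 fold change of 0.23 (adjusted p = 0.326). vit-4 rose by 0.43 (adjusted p = 0.00639) and vit-5 by 0.45 (adjusted p = 0.0227), and the vit-5 call was lost in 4 of 6 fits without one library, such as that without WT replicate 1 (0.29, adjusted p = 0.124).

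Families of the gut and of defence were mostly higher. Of 91 C-type lectin genes 66 rose and 8 fell, from clec-61 (6.34, with 2 WT libraries at the floor) to clec-196 (−4.93). For clec-196, glp-1(ts) replicate 1 was at its floor of −3.29 log2 CPM. All 12 galectin genes rose, lec-3 (2.77) most, and so did all 14 saposin-like genes, spp-2 (3.30) most. Of 55 UDP-glucuronosyltransferase genes, 40 rose and 0 fell by limma, and none of them had a log2 fold change under 0 with an unadjusted p under 0.05. ugt-41 was at 6.56, 6.32 and 6.80 log2 CPM in glp-1(ts), against 2.85, 2.98 and 2.50 log2 CPM in WT (3.78). Of 57 cytochrome P450 genes 39 rose and 6 fell.

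Of 18 cathepsin-type protease genes 17 rose, with asp-17 at 6.1, 5.92 and 5.16 log2 CPM in glp-1(ts), against 1.99, 1.81 and 0.98 log2 CPM in WT. Of 168 nuclear hormone receptor genes 110 rose and 8 fell, with nhr-76 (3.34) first. Among 65 neuropeptide genes 52 rose, with nlp-16 (2.62) first. Vacuolar ATPase genes rose in 17 of 19 cases.

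Genes of proteostasis outside the proteasome were called in both directions, as were all genes (41.7% higher and 38.1% lower). Of 24 autophagy genes 8 rose (33.3%) and 6 fell (25.0%), and the median was −0.00 beside 0.32 for all genes. Of 13 cytosolic heat shock genes 5 rose (38.5%) and 6 fell (46.2%). daf-21, the HSP90 gene, was at 8.78, 8.16 and 8.58 log2 CPM in glp-1(ts), against 11.48, 11.48 and 11.17 log2 CPM in WT (−2.87), and the constitutive hsp-1 fell by 2.29. The inducible hsp-70 was at 5.46, 3.79 and 5.50 log2 CPM in glp-1(ts), against 2.83, 2.15 and 2.76 log2 CPM in WT (2.34). The other members that rose were hsp-16.2, hsp-17, hsp-25 and hsp-43, all of the small heat shock protein family, of which sip-1, counted above with the DAF-16 targets, fell.

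The strain difference on skn-1 RNAi food was set against that on vector, which shares no library with it. On vector 9746 genes were called (77.4%), 4958 higher (39.4%) and 4788 lower (38.0%). Of the genes higher on skn-1 RNAi food 4556 were also higher on vector, 86.7% of the first list and 91.9% of the second, and of those lower 4593 were lower on both, 95.8% and 95.9%. Changes over 4-fold overlapped less among genes that rose, with 1030 on both foods, 54.4% of the list on skn-1 RNAi food and 79.0% of that on vector. Among genes that fell 1811 did so on both, 79.6% and 94.7%.

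More genes passed 4-fold on skn-1 RNAi food, 1895 higher and 2276 lower beside 1304 and 1912 on vector. The vector counts without glp-1(ts) vector replicate 3, whose germline genes stood apart, were 1523 and 2087. Across genes the changes on the 2 foods had a Pearson's r of 0.960, a description in which genes are not independent. Of genes called in one direction on both foods, 72.0% had the larger change on skn-1 RNAi food, and 61.2% without glp-1(ts) vector replicate 3. The median of the meiotic genes was −3.49 on this food and −2.95 on vector, where it was −3.33 without that library.

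On the deposited log2 CPM no gene's strain difference could be shown to depend on the food, and on log2(CPM + 1) that of 1 gene, R09E10.5, did (adjusted p = 0.0104). On the deposited values the test of the difference called 0 of 12595 genes (0.0%) by limma with Benjamini-Hochberg adjustment, with 745 at an unadjusted p under 0.05 and a smallest adjusted p of 0.732. A count of 0 does not show that the strain differences are equal.

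The smallest p belonged to skn-1 itself, with a difference of 1.66 (SE 0.30, unadjusted p = 8.04e-05, adjusted p = 0.732). The overlapping gene csn-5 differed in the other direction, where C18E3.5 and C27H6.3 had smaller p-values. It was at 2.84, 2.45 and 2.35 log2 CPM in glp-1(ts), against 4.75, 4.42 and 4.58 log2 CPM in WT (−2.04), and its log2 fold change on vector was −0.98, a difference of −1.06 (unadjusted p = 0.00033). In the annotation csn-5 lies at 5649533 to 5651079 on the plus strand, so the pair shares only the short stretch from 5651039 to 5651079. No strand setting of the counting is given in the sources used here, so reads of both genes cannot be told apart in that stretch.

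The other small p-values for a higher difference were those of pqn-73, ppw-1, ZK596.1 and him-4. ppw-1, an Argonaute gene of RNAi in the germline, was at 5.32, 4.45 and 5.17 log2 CPM in glp-1(ts), against 4.12, 4.14 and 3.94 log2 CPM in WT (0.92), while on vector it had a log2 fold change of −0.39. him-4, the hemicentin gene of basement membranes, was at 8.27, 8.51 and 8.34 log2 CPM in glp-1(ts), against 4.66, 5.13 and 4.72 log2 CPM in WT (3.54), and rose by 2.34 on vector. For a lower difference they were C18E3.5 (−1.62), C27H6.3 (−1.75), csn-5, orc-3 (−1.10) and F25H2.12 (−1.50). orc-3, of the origin recognition complex, was at 1.23, 1.32 and 1.54 log2 CPM in glp-1(ts), against 4.68, 5.05 and 5.01 log2 CPM in WT, and fell on both foods. Every one of these differences between foods had an adjusted p of 0.732 or more. Some of the genes were called by limma within glp-1(ts), with the skn-1 RNAi label against vector. Lower there were csn-5 (−1.28, adjusted p = 0.00382), C18E3.5 (−1.70, adjusted p = 0.00528) and C27H6.3 (−1.54, adjusted p = 0.0222). So were orc-3 (−0.95, adjusted p = 0.0384) and F25H2.12 (−1.24, adjusted p = 0.0449). ppw-1 was higher (1.57, adjusted p = 0.00528), and pqn-73, ZK596.1 and him-4 were not called.

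The next genes are those in which the WT libraries had other levels on skn-1 RNAi food than on vector. The change of WT with the food passed the test for pqn-73 (−4.60) and pha-4 (−1.39), both with adjusted p = 0.0127, but not for R09E10.5 (−4.98, adjusted p = 0.0956) or K04H4.2 (−2.52, adjusted p = 0.0753). They were picked after their values were seen, apart from pqn-73. pqn-73 was at −1.92, −2.05 and −2.65 log2 CPM in glp-1(ts), and at −4.35, −3.03 and −2.89 log2 CPM in WT, with no call (1.22, adjusted p = 0.0913). Its groups did not overlap, however, and the limma fit without trend called it higher (adjusted p = 0.0216). On vector it was at −2.65, −1.34 and −1.73 log2 CPM in glp-1(ts), against 0.96, 1.41 and 1.15 log2 CPM in WT (−3.08). R09E10.5 was at −3.29, −4.21 and −1.21 log2 CPM in glp-1(ts), and at −2.86, −0.66 and −4.35 log2 CPM in WT (−0.28), but on vector its WT libraries were at 2.20, 2.39 and 2.50 log2 CPM and the log2 fold change was −5.92. In both genes the WT libraries on vector were the only ones with a level well above the floor.

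pha-4, the FoxA gene of the pharynx and gut, was at 3.00, 2.72 and 2.93 log2 CPM in glp-1(ts), against 1.40, 1.66 and 1.91 log2 CPM in WT (1.23, adjusted p = 6.7e-05). On vector its WT libraries were at 2.98, 2.84 and 3.34 log2 CPM and it was not called (0.28, adjusted p = 0.209). In the main fit 1 gene, K04H4.2, was called in opposite directions by limma. It was higher on skn-1 RNAi food (1.32, adjusted p = 0.0255) and lower on vector (−1.17, adjusted p = 0.0453). It was at 0.42, 1.87 and 1.27 log2 CPM in glp-1(ts), and at −0.15, 0.63 and −0.88 log2 CPM in WT, which overlap, and the difference had an unadjusted p = 0.00346. On the deposited log2 CPM none of these differences between foods passed the correction over all genes, and on log2(CPM + 1) that of R09E10.5 did.

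**Figure D5:**
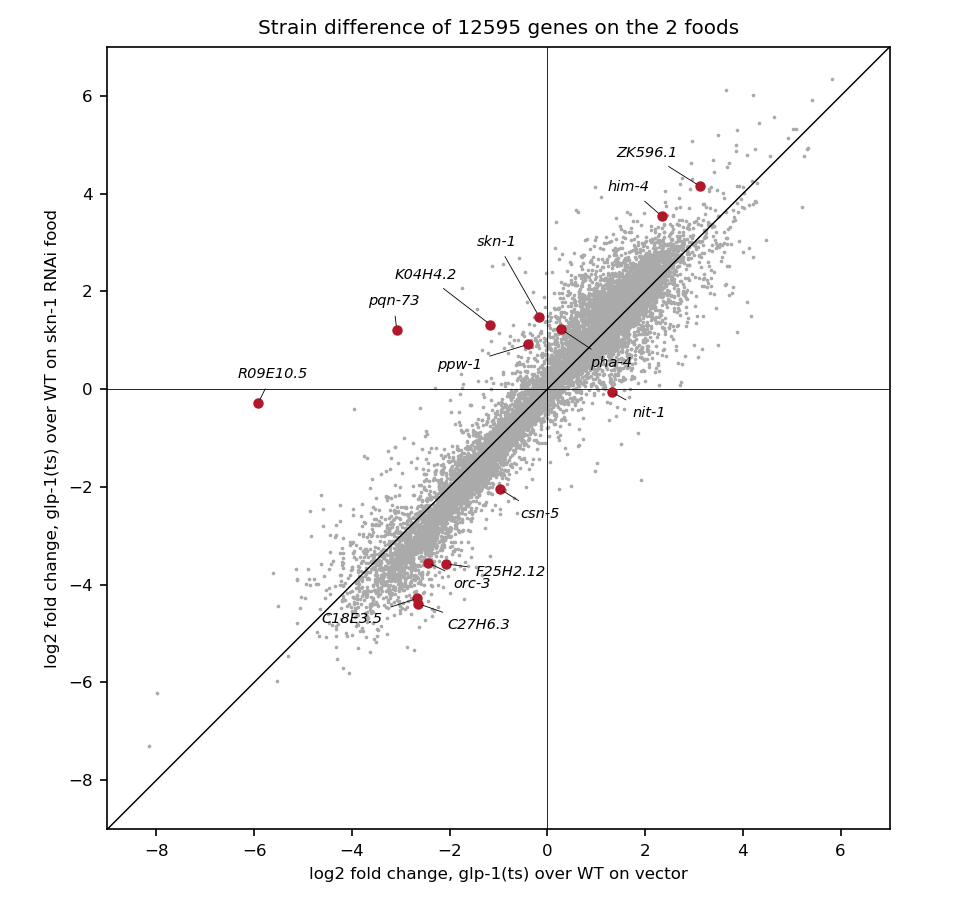
Log2 fold change of glp-1(ts) over WT on skn-1 RNAi food (y axis) against that on vector (x axis), a point per gene, with the line of equal change. Genes named in the text for their difference between the foods are in red; skn-1 lies at 1.49 on skn-1 RNAi food and −0.17 on vector, and most genes lie near the line.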

How the data were processed

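Whole day 1 adults of 4 groups, 3 libraries each, were compared. Per the study's methods, the authors aligned poly(A) reads to WBcel235 with STAR, counted them per gene with featureCounts (versions and strand setting not given in the sources used here), kept genes of at least 1 CPM in at least 2 samples and deposited log2 CPM after quantile normalization in voom. These deposited log2 values, of unknown depth, were used as they stood; quantile normalization gives every library one distribution, so changes are relative to the other genes. A further deposited table with the authors' group means and their own fold changes and p-values was not used.

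All 12595 genes were fitted with limma 3.58.1 (R 4.3.3; trended variance, 4 group means, 8 residual degrees of freedom) and p-values were adjusted by Benjamini-Hochberg over all genes; calls have adjusted p under 0.05. The difference between foods was a contrast of the same fit. The code was tested on simulated data. Tables and figures used Python 3.11.15, pandas 2.3.3 and matplotlib 3.10.9. Positions come from Ensembl release 115, in which 12485 of the gene IDs were found.

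The gene lists and the members described were chosen with earlier results of these data known. Genes were named if fixed in a list of study genes, if among the 5 largest changes in each direction (10 with a gene class name) with groups apart and a higher mean of at least 3 log2 CPM, if the largest called member of a list in either direction, or if among the 5 smallest p-values in each direction for the difference between foods; other members named were picked after their values were seen. Libraries with the same replicate number deviated together across food within a strain (correlation of deviations 0.149, 0.337 and 0.233 in glp-1(ts), 0.106, 0.314 and 0.247 in WT). Between the strains on skn-1 RNAi food these correlations were also above 0 but weaker for each replicate number (0.088, 0.163 and 0.040). Alternatives tried were a fit without trend, vooma weights, the 6 libraries alone, filters on the mean of 1 and 4 CPM, log2(CPM + 1), centring on reference genes or on the median gene, a replicate block, and leaving out each library.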

Additional observations from a re-analysis of the deposited data

How the results depend on the processing

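Depth is unknown, and genes near the floor of a library have the least certain fold changes. The 5254 higher and 4793 lower calls on skn-1 RNAi food ranged from 3799 and 3837, where genes under a mean of 4 CPM were left out, to 5378 and 4842 with the replicate block. The block also left 0 genes called for the difference between foods. Leaving out one library gave 4916 to 5143 higher and 4600 to 4778 lower calls, and 0 for the difference. Asking for a change over 4-fold left 1895 higher and 2276 lower. On log2(CPM + 1), 1027 higher and 1434 lower genes passed 4-fold, and the difference between foods called 1 gene, R09E10.5 (adjusted p = 0.0104); the cause was not tested. Over all settings the next lowest adjusted p for this difference among the named genes followed across settings was 0.0526, for pqn-73. The median of all genes was 0.32, and 0.23 on log2(CPM + 1), and 52.1% to 52.9% of calls were higher under the scalings tried.

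Of 143 genes checked, 126 kept their direction and side of the threshold in every alternative, 8 of 131 called genes lost the call in at least 1 (msp-76, pmp-3, rol-1, gcs-1, lbp-8, cpt-3, vit-5 and sid-1; rol-1 with vooma weights, adjusted p = 0.0677), and 0 turned direction. Genes without a call that changed sign were fat-7 on log2(CPM + 1) (−0.47) and, over the fits without one library, fat-7 (−1.43 to 2.31), ceh-51 (−1.29 to 0.27), nit-1 (−0.39 to 0.23), gst-7 (−0.13 to 0.29) and vit-3 (−0.0066 to 0.37). Of 809 alternative list medians 58 moved by more than the spread between replicates, and 4 lists changed sign in at least 1. Over-4-fold counts on both foods, the comparison of the foods without glp-1(ts) vector replicate 3 and the difference between foods of named genes under each setting were added after the data had been seen.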
